A study of Mus musculus with 9 samples.

Results

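The unfolded protein response was followed through 31 genes in mouse retina, of 12765 genes tested. They comprise the sensors of unfolded protein in the endoplasmic reticulum (ER), the transcription factors these sensors activate, and target genes. Each gene was read by 1 probe set, that with the highest mean over the 9 arrays among probe sets annotated with its symbol alone, and all 31 passed the filter on dim probe sets. The genes were divided by the sensor they report on: 7 for PERK, 7 for IRE1, 13 for ATF6, and 4 shared by several arms.

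Retinal RNA was measured on 9 Affymetrix 3′ expression arrays from female BALB/c mice (spelled Babl/c in the labels), an albino strain, aged 10 weeks. One group was kept in a dark environment (control), and the others met white light-emitting diodes (LEDs) of 2954K, a warm white, or 7378K, a cold white, at 1000 lx for 14 days. Light hours were 12 h on and 12 h off in every group, and the light the controls met is not known. The tissue was neurosensory retina separated from the pigment epithelium, no transgene or drug is given in the labels, and each array held RNA of 3 pooled right-eye retinas, so that n = 3 pools per group. Nothing states that the pools were housed or processed independently, so p-values measure the spread between these pools.

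The ER folds secreted and membrane proteins. When unfolded protein accumulates, PERK (Eif2ak3) slows translation and favours ATF4, IRE1 (Ern1) splices the Xbp1 transcript so that it encodes an active factor, and ATF6 is cleaved into a factor that induces chaperones. Photoreceptors renew large amounts of membrane protein, and ER stress is a known feature of several retinal degenerations.

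The DNA elements through which the response acts are shown first, because the ATF6 and PERK arms are known to act on their targets through them. In the RefSeq promoter table for mouse build GRCm38.p6 (250 bases before to 50 after each transcription start), 27 of the 31 genes had 28 promoters. Derl1, Hyou1, Manf and Atf6 had no entry. The ER stress response element, searched on both strands as CCAAT, 9 bases of any kind and CCACG, is known to be bound by ATF6 with the factor NF-Y. Its letters stood in 8 of 28 promoters of these genes (28.6%) against 0.119% of all 32851 promoters. The 31 genes were chosen as genes of this response, so such shares describe that choice and are not a result of these arrays. The 8 genes were Hspa5, Calr, Hsp90b1, Canx, Pdia6, Dnajc3, Creld2 and Syvn1, which belong to the IRE1 and ATF6 arms and the shared genes. Examples with the element in capitals, each 5′ to 3′ on the strand of its gene, are Hspa5 (chr2:34771985-34772083, + strand), Syvn1 (chr19:6046492-6046575, + strand) and Calr (chr8:84847035-84847133, − strand). In Calr the element reads on the opposite strand.
Hspa5: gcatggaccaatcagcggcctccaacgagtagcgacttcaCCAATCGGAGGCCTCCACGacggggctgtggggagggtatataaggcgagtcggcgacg
Syvn1: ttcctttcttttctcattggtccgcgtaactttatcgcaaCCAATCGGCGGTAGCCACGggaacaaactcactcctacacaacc
Calr: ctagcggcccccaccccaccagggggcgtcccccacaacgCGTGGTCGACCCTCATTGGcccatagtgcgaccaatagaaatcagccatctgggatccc

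The amino acid response element, the kind of site known to be bound by ATF4, was searched as TGATGNAAN on both strands. It stood in 4 promoters (14.3%, against 3.95% of all promoters), those of Chac1, Trib3, Asns and Herpud1. TGACGTGG, the core of a further element bound by ATF6 and spliced XBP1, stood in 0 of the 28 and in 0.676% of all promoters. Chac1, the PERK-arm gene with the largest differences below, carries the ATF4-type element on the opposite strand (chr2:119351008-119351096, + strand).
Chac1: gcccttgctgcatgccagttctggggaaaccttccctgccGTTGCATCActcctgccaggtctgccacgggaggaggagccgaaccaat

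The photoreceptor genes Gnat1 (14.39 to 14.98) and Sag (14.59 to 15.09) had high signals on all arrays. So did the pigment epithelium gene Rpe65 (9.73 to 11.83), in a tissue described as separated from that layer. Values here and below are deposited log2 signals, and a difference of 1 is a doubling. Technical measures moved with the groups. The first was the 3′ minus 5′ difference of the Gapdh and beta-actin control probe sets, which grows when RNA or labelled product is short. It stood at 0.33, 0.20 and 0.42 on control arrays 1 to 3. On the LED arrays it stood at 2.78, 0.21 and 1.05 with 2954K light and 1.80, 1.67 and 1.55 with 7378K light. The same difference for dap, a bacterial spike-in added for the labelling, was 1.37 to 1.81 on the control arrays, 3.02, 1.34 and 2.19 with 2954K and 2.70 to 2.77 with 7378K. By both measures 2954K array 2 was the only LED array not above the control range. Of 13 tested microglia and macrophage markers, 8 rose in 2954K and 10 in 7378K; the log2 of their summed signal was 11.38 to 11.91 in controls, 13.13 to 13.23 in 2954K and 13.26 to 13.38 in 7378K, and Trem2 lay below the filter. Of 10 Müller glia markers 2 rose in each LED contrast and 5 lay above 0. Their differences ran from -0.24 to 1.22 in 2954K (median 0.11) and from -0.20 to 1.45 in 7378K (median 0.07). Their list mean relative to the control mean was 0.12 to 0.37 on the LED arrays, above all controls (-0.06 to 0.10). Their log2 summed signals were 15.90 to 16.08, 16.04 to 16.15 and 16.05 to 16.16 in control, 2954K and 7378K, and none lay below the filter. Of 12 rod markers 0 fell in 2954K and 4 fell in 7378K, with log2 summed signals of 17.67 to 17.91, 17.48 to 17.82 and 17.52 to 17.71. Log2 sums of the pigment epithelium markers ranged from 14.41 to 15.55, 15.35 to 15.62 and 14.68 to 15.39 in the same order, and 0 of 9 tested passed the test. Lens markers stood apart on the third array of each group, with list means of 5.13, 2.46 and 0.59 relative to the control mean, against -3.84 to -2.01 on the other arrays. In bulk tissue, fewer cells of a type and less RNA per cell cannot be told apart.

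Of the 31 genes, each read by its brightest probe set, Xbp1 and Ern1 of the IRE1 arm were the ones to pass the test against control. Xbp1, whose protein is the effector of IRE1, rose 1.5-fold in 7378K against control, and Xbp1 and Ern1, the gene of IRE1 itself, rose 1.45-fold and 1.39-fold when both LED groups were set against control. A gene was called when limma's p, adjusted by Benjamini-Hochberg over all 12765 genes, was under 0.05. Of the 31 genes, 0 were called in 2954K, 1 in 7378K, 0 in 7378K against 2954K and 2 in both LED groups together. Over all genes tested, 1.22%, 3.52%, 0.0% and 3.45% were called in these contrasts, so the members' counts lay near the background. Both LED groups were set against the same 3 control arrays, so the contrasts are not independent of each other.

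At an unadjusted p under 0.05 the members' counts were 8 in 2954K (7 higher, 1 lower; 25.8% against 13.1% of all genes), 12 in 7378K (11 higher, 1 lower; 38.7% against 22.6%) and 14 in both LED groups (12 higher, 2 lower; 45.2% against 21.6%). The median difference of the 31 genes was 0.20 in 2954K and 0.16 in 7378K, beside 0.01 and 0.04 over all genes. Differences above 0 were found for 24 genes (77.4%, beside 51.8% of all genes) and 21 genes (67.7%, beside 56.0%).

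**Figure D1:**
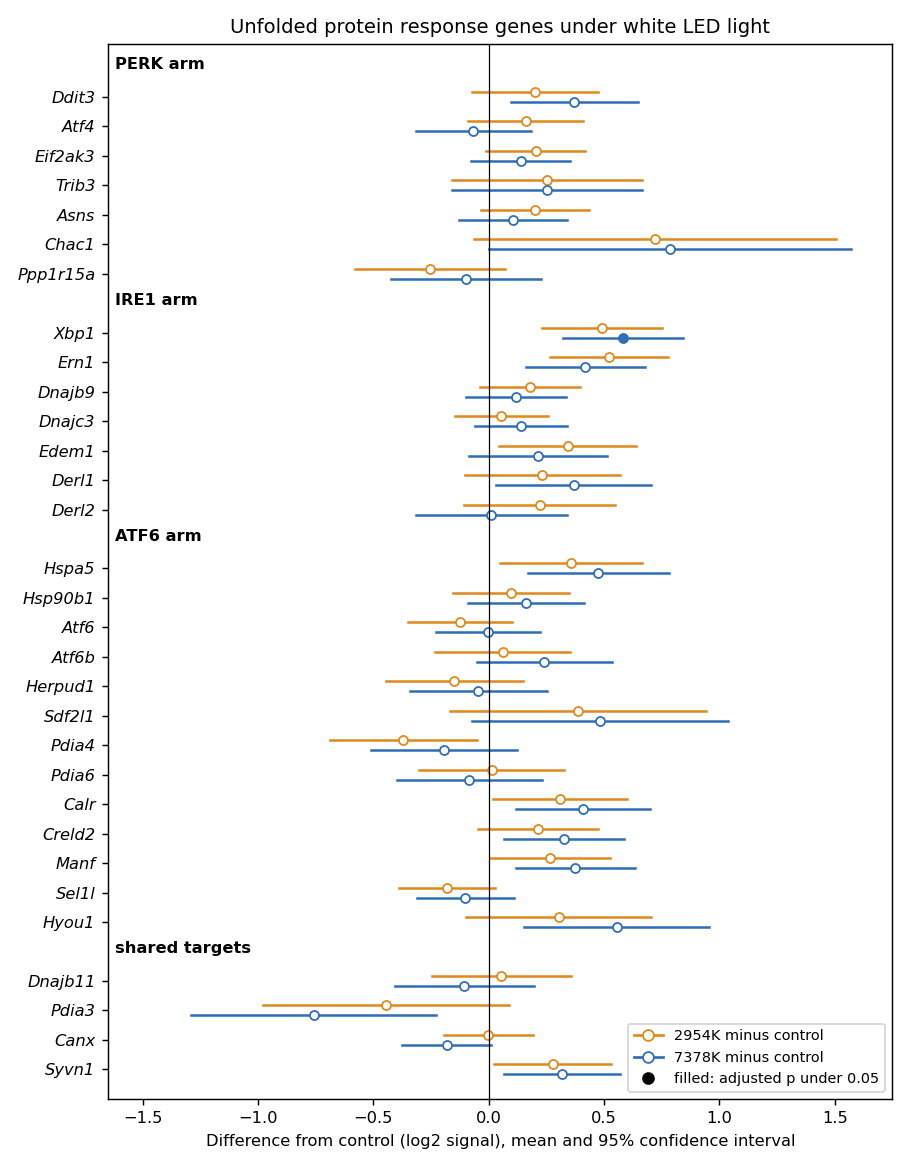
The log2 difference from control of each of the 31 genes is plotted with its 95% interval (limma, n = 3 pools per group) for 2954K and 7378K, grouped by arm. On the brightest probe sets plotted, all 7 IRE1-arm genes lie above 0 in both contrasts, whereas Pdia3 lies lowest at -0.45 and -0.76.

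By arm, and on the brightest probe sets, the IRE1 genes had median differences of 0.23 in 2954K and 0.21 in 7378K, with 7 of 7 above 0 in each. Of these, Xbp1, Dnajc3, Derl1 and Derl2 also had tested probe sets of the opposite sign in each contrast. The 7 include the called genes Xbp1 and Ern1, and the arms were chosen with earlier results of these data known. The arms were not tested against each other. The PERK genes had medians of 0.20 and 0.14, with 6 and 5 of 7 above 0, and the ATF6 genes 0.10 and 0.24, with 9 and 8 of 13 above 0. The 4 shared genes had 0.03 and -0.14. Averaged over its genes and relative to the control mean, the IRE1 arm was 0.37, 0.18 and 0.33 with 2954K and 0.28, 0.23 and 0.28 with 7378K, beyond the controls (-0.02 to 0.02) on every LED array. The ATF6 arm was 0.10, 0.01 and 0.16, then 0.24, 0.15 and 0.20, and 2954K array 2 lay within the controls (-0.02 to 0.02). The PERK arm was 0.16, 0.01 and 0.46, then 0.19, 0.24 and 0.20, again with 2954K array 2 inside the range of the controls (-0.04 to 0.05).

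**Figure D2:**
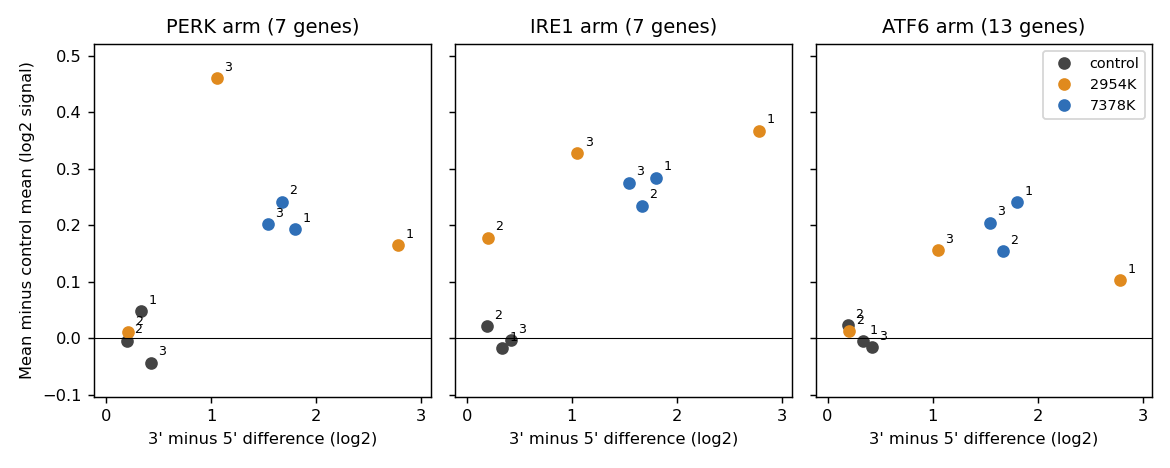
The mean log2 difference of each arm from the control mean is plotted against the 3′ minus 5′ log2 difference of the array, 1 point per array, for control, 2954K and 7378K pools. On 2954K array 2, whose 3′ minus 5′ difference of 0.21 lies among the controls, the IRE1 arm is at 0.18, and the PERK and ATF6 arms are at 0.01. Of the IRE1 arm, Xbp1, Ern1, Dnajc3, Edem1 and Derl2 exceed all controls on this single array and Derl1 lies below them. Of all genes, 24.2% lie above and 29.2% below all controls on it.

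In the IRE1 arm, Xbp1 (probe set 1437223_s_at) gave 11.96, 12.02 and 11.89 in the controls, 12.59, 12.21 and 12.53 in 2954K, and 12.52, 12.39 and 12.69 in 7378K. All 6 LED arrays lay above all 3 controls. The group means were 11.95 ± 0.06, 12.44 ± 0.21 and 12.54 ± 0.15 (SD, n = 3). The difference of 0.58 ± 0.12 (SE) in 7378K passed limma's test (1.5-fold, adjusted p = 0.0213), as did 0.54 ± 0.10 in both LED groups (1.45-fold, adjusted p = 0.0136). In 2954K it was 0.49 (1.41-fold), with limma's adjusted p at 0.0831.

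Xbp1 is read by 4 probe sets, and they did not move alike. Next to the brightest, 1420012_at gave 7.47, 7.58 and 7.34 in the controls, 8.24, 7.95 and 7.60 in 2954K, and 7.80, 7.99 and 8.17 in 7378K, again higher on all 6 LED arrays. Its differences were 0.47 and 0.52, which did not pass (adjusted p = 0.409 and 0.177 in limma's fit of all 22657 tested probe sets). Probe set 1420886_a_at gave 11.46, 11.84 and 11.42, then 10.73, 11.80 and 11.54, then 11.31, 11.14 and 11.50. Its differences of -0.22 and -0.26 had the opposite sign and its groups overlapped. The last, 1420011_s_at, gave 10.04, 10.04 and 9.78, then 9.68, 10.35 and 10.21, then 10.24, 9.67 and 10.20, with differences of 0.12 and 0.08 and overlapping groups. The annotation does not separate spliced from unspliced Xbp1, so no probe set here measures splicing, and an s or x in a probe set's name marks probes that can match more than 1 transcript.

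**Figure D3:**
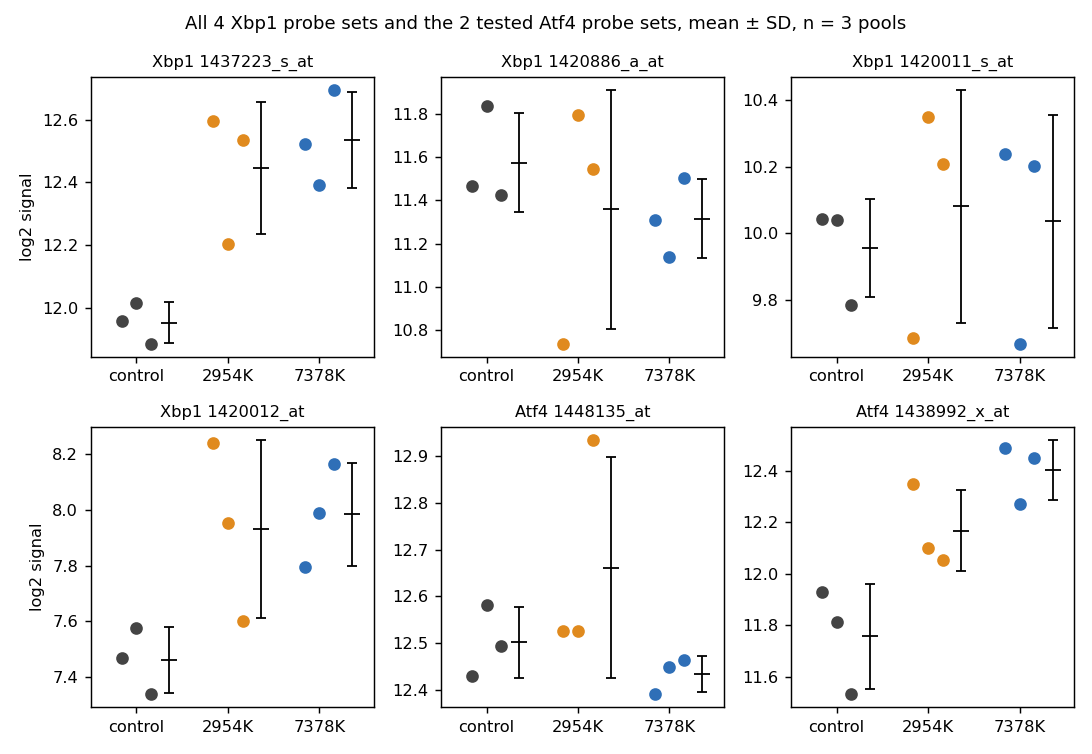
Log2 signals of the Xbp1 and Atf4 probe sets above the filter are plotted for each of the 9 arrays. Xbp1 1437223_s_at and 1420012_at lie above the controls on all 6 LED arrays, the other Xbp1 probe sets overlap them, and of the Atf4 pair the x probe set alone separates LED arrays from controls.

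Ern1, the gene of the sensor and nuclease IRE1, gave 9.98, 9.95 and 9.80 in the controls, 10.63, 10.36 and 10.31 in 2954K, and 10.40, 10.37 and 10.22 in 7378K. Every LED array exceeded every control. The means were 9.91 ± 0.10, 10.43 ± 0.17 and 10.33 ± 0.10 (SD, n = 3). The rise of 0.47 ± 0.10 (SE) in both LED groups passed limma's test (1.39-fold, adjusted p = 0.0252), whereas the single contrasts, 0.52 in 2954K (adjusted p = 0.0623) and 0.42 in 7378K (adjusted p = 0.0724), did not. A second tested probe set, 1438583_at, differed by 0.22 and 0.30 with overlapping groups, and with the mean of all Ern1 probe sets the difference in both LED groups was 0.22 (adjusted p = 0.705). Such means, here and below, take in any probe sets of the gene below the filter, for Ern1 1450176_at, 1421240_at and 1431886_at.

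The 5 known targets of spliced XBP1 were above 0 in both contrasts on their brightest probe sets, without passing the test. Edem1, which draws misfolded glycoproteins towards degradation, gave 8.55, 8.71 and 8.62 in controls, 8.79, 9.02 and 9.09 in 2954K, and 8.80, 8.90 and 8.82 in 7378K. Its LED arrays all lay above the controls, by 0.34 and 0.21 on average (adjusted p = 0.314 and 0.376). Derl1, a channel component of ER-associated degradation, gave 11.84, 11.85 and 11.98, then 12.56, 11.84 and 11.97, then 12.28, 12.25 and 12.24. Only its 7378K arrays cleared the controls (0.37, adjusted p = 0.184). The sign of that Derl1 difference turned under 3 alternatives, to -0.03 with the 3′ minus 5′ covariate, -0.11 with dap as covariate and -0.29 with the mean of all its probe sets. Dnajb9 and Dnajc3, co-chaperones of BiP, differed by 0.18 and 0.05 in 2954K and by 0.12 and 0.14 in 7378K, and Derl2 by 0.22 and 0.01. Other tested probe sets went the other way: Dnajc3 1449373_at was at -0.99 and -1.16, and Derl2 1435101_at at -0.33 and -0.25. Both were below all controls on all 7378K arrays. The remaining Dnajc3 probe sets ran from -0.28 to 0.33 over the 2954K and 7378K contrasts.

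The calls of Xbp1 and Ern1 did not hold under every setting. With that 3′ minus 5′ measure as covariate, Xbp1 was at 0.42 in 7378K (adjusted p = 0.238) and 0.39 in both LED groups (adjusted p = 0.178), and Ern1 at 0.33 (adjusted p = 0.286). Then 0 members were called, beside 1.07% of all genes in 7378K and 1.2% in both LED groups. Leaving out control 1, 2 or 3 ended all calls in both contrasts, leaving out 7378K array 1 or 3 ended that of Xbp1 in 7378K, and leaving out 7378K array 1 or 2 ended that of Ern1. The calls over all genes fell as well. In 7378K they went from 449 to 188, 170 and 391 without control 1, 2 and 3, and to 144 and 169 without 7378K array 1 and 3. In both LED groups they went from 441 to 189, 164 and 398, and to 266 and 307 without 7378K array 1 and 2. Without the third array of each group, where lens markers were high, Xbp1 was at 0.47 in 7378K (adjusted p = 0.227) and Ern1 at 0.47 in both LED groups (adjusted p = 0.138). Of all genes 1.14% and 1.28% were then called in these contrasts. On 2954K array 2, a single array within the controls' 3′ minus 5′ range, Xbp1 (12.21) and Ern1 (10.36) exceeded all controls, as 24.2% of all genes did. Derl1 of the same arm lay below all controls on it. The part that the technical measures or the microglial and Müller glia markers had in these rises was not tested further.

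In the PERK arm, Eif2ak3, the sensor kinase, gave 10.56, 10.54 and 10.66 in controls, 10.77, 10.71 and 10.89 in 2954K, and 10.84, 10.67 and 10.66 in 7378K. All LED arrays were above the controls, 7378K arrays 2 and 3 narrowly, and the differences of 0.20 and 0.14 did not pass (adjusted p = 0.41 and 0.435). With the mean of all its probe sets the 7378K difference was -0.31. Its other probe sets, 1430371_x_at and 1453505_a_at, lay below the filter, at means of 2.79 and 2.20. Atf4, the factor that PERK favours mainly through translation, gave 12.43, 12.58 and 12.49, then 12.53, 12.53 and 12.93, then 12.39, 12.45 and 12.46 on its brightest probe set. Its groups overlapped, with differences of 0.16 and -0.07 (adjusted p = 0.572 and 0.771), and with the mean of all its probe sets the latter was 0.52. The Atf4 mean takes in 1439258_at, below the filter at a mean of 2.76.

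A second Atf4 probe set, 1438992_x_at, behaved otherwise. It gave 11.93, 11.81 and 11.53 in controls, 12.35, 12.10 and 12.06 in 2954K, and 12.49, 12.27 and 12.45 in 7378K, with all LED arrays above the controls. The difference was 0.41 in 2954K (adjusted p = 0.252) and 0.65 in 7378K (1.57-fold), and the latter passed limma's test over all probe sets (adjusted p = 0.0262). Thus Atf4 rose by 1 of its probe sets and not by the other. Among the 63 tested probe sets of the 31 genes, 0 were called in 2954K, 2 in 7378K (this one and Xbp1 1437223_s_at) and 3 in both LED groups, which added Ern1 1437119_at. Over all probe sets 0.64%, 2.51% and 2.22% were called.

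Ddit3, which encodes the ATF4-induced factor CHOP, gave 10.49, 10.39 and 10.48 in controls, 10.48, 10.56 and 10.92 in 2954K, and 10.95, 10.70 and 10.82 in 7378K. The 7378K arrays all exceeded the controls, by 0.37 on average (1.29-fold, adjusted p = 0.116), and the 2954K arrays overlapped them (0.20, adjusted p = 0.518; -0.02 with the mean of all its probe sets). Chac1, a glutathione-degrading enzyme induced by ATF4, was dim and variable, at 6.61, 6.45 and 6.35, then 7.28, 6.35 and 7.94, then 7.29, 7.42 and 7.06. Its differences of 0.72 in 2954K (adjusted p = 0.42) and 0.79 in 7378K (1.72-fold, adjusted p = 0.221) were the largest among the 31 genes. They carried a standard error of 0.36, and 2954K array 2 did not exceed the controls. With the 3′ minus 5′ covariate the Chac1 differences were 0.46 and 0.44, and with dap 0.43 and 0.21.

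The other PERK-arm targets gave small differences on their brightest probe sets. Trib3, a pseudokinase that restrains the response, differed by 0.25 in each LED group. Asns, asparagine synthetase, differed by 0.20 and 0.11. Ppp1r15a, the phosphatase subunit that restores translation, was at -0.25 and -0.10, and adjusted p was at least 0.446 for these 3 genes in both contrasts. A further Asns probe set, 1433966_x_at, differed by 0.46 and 0.53, with all LED arrays above the controls (adjusted p = 0.273 and 0.0751 in limma's fit of all probe sets). Trib3 1456225_x_at differed by 0.655 and 0.42 (adjusted p = 0.402 and 0.416), and only its 2954K arrays all lay above the controls.

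In the ATF6 arm, transcripts of the sensors differed little. Atf6 gave 10.53, 10.66 and 10.60 in controls, 10.33, 10.56 and 10.53 in 2954K, and 10.67, 10.51 and 10.61 in 7378K, with overlapping groups and differences of -0.12 and -0.00, which turned to 0.13 in 2954K with the mean of all its probe sets and to 0.12 in 7378K with the 3′ minus 5′ covariate. Its relative Atf6b gave 9.34, 9.31 and 9.11, then 9.42, 9.08 and 9.45, then 9.51, 9.51 and 9.47. The 7378K arrays of Atf6b lay above the controls (0.24, adjusted p = 0.312). The mean of the Atf6 probe sets takes in 1453288_at, below the filter at 4.61, whereas the tested 1456021_at was at -0.17 and -0.02.

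Hspa5 encodes BiP, the main ER chaperone and the classical ATF6 target whose promoter is printed above. It gave 12.46, 12.57 and 12.86 in controls, 13.11, 12.68 and 13.17 in 2954K, and 13.22, 13.03 and 13.06 in 7378K. The 7378K arrays exceeded all controls and 2954K array 2 did not. The differences were 0.36 in 2954K (1.28-fold, adjusted p = 0.308) and 0.48 ± 0.14 (SE) in 7378K (1.39-fold, adjusted p = 0.084), neither past limma's threshold. With the mean of all its probe sets, Hspa5 was called in 7378K (0.45, adjusted p = 0.0479) and Xbp1 was not (0.23, adjusted p = 0.312). With the 3′ minus 5′ covariate the Hspa5 difference was 0.28 (adjusted p = 0.634), and with dap 0.16 (adjusted p = 0.85).

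Other chaperones of this arm were separate from the controls in 7378K and overlapped them in 2954K. Calr (calreticulin), the lectin chaperone whose promoter is also printed, gave 12.71, 12.81 and 12.89, then 13.45, 12.84 and 13.05, then 13.25, 13.19 and 13.20. Hyou1, an ER member of the HSP110 family, gave 10.35, 10.27 and 10.42, then 11.19, 10.36 and 10.40, then 10.90, 10.79 and 11.02. The 7378K differences were 0.41 for Calr (1.33-fold, adjusted p = 0.107) and 0.56 for Hyou1 (1.47-fold, adjusted p = 0.11). With the 3′ minus 5′ covariate they were 0.09 and 0.10, and with the mean of all its probe sets Hyou1 was at -0.16. That mean takes in 1451913_a_at, below the filter at 2.58. The tested Hyou1 probe sets, 1423291_s_at and 1423290_at, were at 0.56 and 0.07.

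Manf, a secreted survival factor retained in the ER by BiP, gave 10.85, 10.84 and 10.72 in controls, 10.88, 11.02 and 11.31 in 2954K, and 11.28, 11.18 and 11.09 in 7378K. Its LED arrays all lay above the controls, by 0.27 (adjusted p = 0.37) and 0.38 (adjusted p = 0.098). With the 3′ minus 5′ covariate the 7378K difference was 0.48, which did not pass limma's test (adjusted p = 0.206). Creld2, an ER stress-inducible protein, gave 9.73, 9.73 and 9.60, then 10.07, 9.73 and 9.89, then 9.97, 9.94 and 10.12. Its 7378K difference was 0.33 (adjusted p = 0.14), with all 3 arrays above the controls. With the 3′ minus 5′ covariate that Creld2 difference was 0.17, and with dap 0.13.

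Disulfide isomerases of this arm, which form and rearrange protein cross-links, had differences near or below 0. Pdia4 gave 9.87, 10.02 and 10.25, then 9.54, 9.87 and 9.61, then 9.99, 9.95 and 9.63, with overlapping groups and differences of -0.37 and -0.19 (adjusted p = 0.307 and 0.456). With the mean of its probe sets Pdia4 was at 0.39 in 2954K, and it was at 0.02 in 7378K when array 3 of every group was left out. The Pdia4 mean takes in 1450620_at, below the filter at 2.87. Pdia6 was at 0.01 and -0.08. The remaining ATF6-arm genes were Hsp90b1 (0.10 and 0.16), Sdf2l1 (0.39 and 0.48), Herpud1 (-0.15 and -0.05) and Sel1l (-0.18 and -0.10), which encode an ER HSP90, a BiP cofactor and parts of the degradation machinery. On their brightest probe sets, adjusted p was at least 0.283 in both contrasts. Sel1l 1425188_s_at was at -0.91 and -1.15, below all controls on all LED arrays (adjusted p = 0.278 and 0.0647 in limma's fit of all probe sets). Hsp90b1 1438040_a_at was at -0.04 and -0.75, and its 7378K arrays lay below all controls (adjusted p = 0.104 in the same fit).

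Among the shared genes, Pdia3, the disulfide isomerase that works with calreticulin and calnexin, gave 11.33, 11.69 and 11.53 in controls, 10.32, 11.55 and 11.34 in 2954K, and 10.73, 10.74 and 10.81 in 7378K. The 7378K arrays were all below the controls, at -0.76 ± 0.24 (SE, 0.591-fold), without passing limma's test (adjusted p = 0.103). With the 3′ minus 5′ covariate the difference was -0.09, with dap 0.05, and the 2954K difference of -0.45 was 0.07 with the former. The lowest value was on 2954K array 1, the array with the largest 3′ minus 5′ difference. Syvn1, the ubiquitin ligase of ER-associated degradation, gave 10.41, 10.44 and 10.42, then 10.89, 10.49 and 10.72, then 10.77, 10.62 and 10.84. On this brightest probe set all LED arrays lay above the controls, by 0.28 (adjusted p = 0.338) and 0.32 (adjusted p = 0.138). Another tested Syvn1 probe set, 1428070_at, was at -0.04 and 0.15 with overlapping groups. With the 3′ minus 5′ covariate the 7378K difference of the brightest was 0.13, and with dap 0.06. Canx (calnexin) was at -0.00 and -0.18, and Dnajb11, a co-chaperone of BiP, at 0.06 and -0.11.

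Counted by separation of arrays, 8 of the 31 genes were higher in all 2954K arrays than in all controls (Xbp1, Ern1, Eif2ak3, Trib3, Asns, Manf, Edem1 and Syvn1) and 1 was lower (Sel1l), where 7.68% and 7.53% of all genes were. In 7378K 17 were higher, where 21.6% of all genes were, and 2 were lower (Pdia3 and Canx), where 14.8% were. On their brightest probe sets, Xbp1, Ern1, Eif2ak3, Manf, Edem1 and Syvn1 were higher on all 6 LED arrays than on all controls. The same held for 5.84% of all genes. On 2954K array 2 alone, 14 of the 31 genes exceeded all controls and 6 lay below them, beside 24.2% and 29.2% of all genes, and the members' median difference was 0.05.

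None of the 31 genes passed the test between the 2 lights. In 7378K against 2954K, limma called 0 members and 0 of all 12765 genes (519 genes at an unadjusted p under 0.05, 0 of them members), and the members' lowest adjusted p was 0.978. The 95% intervals of the differences had a median half-width of 0.29 and lay within ±0.5 for 26 of 31 genes. For Xbp1 the difference was 0.09 (-0.17 to 0.35), for Ern1 -0.10 (-0.36 to 0.15) and for Hspa5 0.12 (-0.19 to 0.43). Atf4 (-0.23, interval -0.48 to 0.02) and Canx (-0.18, interval -0.38 to 0.01) were lower in all 7378K than in all 2954K arrays and Atf6b (0.18, interval -0.11 to 0.47) was higher, where 3.28% of all genes were lower and 5.27% higher. The missed threshold does not show that the lights acted alike.

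The count of calls in 7378K depended on which arrays gave the estimate of spread. With only the control and 7378K arrays in the fit, 11 members were called: Hspa5, Ddit3, Xbp1, Ern1, Calr, Creld2, Manf, Syvn1, Derl1 and Hyou1 rose and Pdia3 fell. In that fit 17.0% of all genes were called. Without 2954K array 1, 8 members were called in 7378K, where 11.9% of all genes were, and Pdia3 was called lower than in 2954K, where 0.227% of all genes were called. Without 2954K array 2, Hspa5, Xbp1, Ern1, Chac1 and Calr were called higher in 2954K, 5 members were called in 7378K and 8 in both LED groups. Of all genes, 7.01%, 9.49% and 14.5% were called in these 3 contrasts.

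Probe sets of a gene often disagreed in sign. Of 20 members with several tested probe sets, 8 had opposite signs in 2954K and 8 in 7378K; of 5867 such genes in all, 56.6% and 58.8% did. Derl1 was at 0.37 in 7378K on its brightest probe set and at -1.02 on 1423082_at. Canx was at -1.34 on 1422845_at and 0.41 on 1428935_at, and Herpud1 was at -1.20 on 1435626_a_at (adjusted p = 0.0754). For 1422845_at the 2954K arrays gave 8.75, 11.26 and 9.78 and the controls 10.35 to 10.97, so that 2954K array 2 was the highest of all and array 1, with the largest 3′ minus 5′ difference, the lowest. Probe positions along the transcripts were not analysed here.

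By promoter, the 8 genes with the ER stress response element had median differences of 0.15 in 2954K (7 of 8 above 0) and 0.24 in 7378K (6 of 8 above 0). The 19 genes with a promoter entry without it had 0.20 (14 of 19) and 0.12 (12 of 19). This is a description of promoters, with no statement on binding.

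Genes of neighbouring pathways, listed apart from the 31, were counted in the same way, beside the 1.22% of all genes called in 2954K and 3.52% in 7378K. Of 31 tested integrated stress response genes, which share ATF4 with the PERK arm, 2 rose in 2954K (Atf3 and Cebpb), and 5 rose (with Aldh18a1, Atf5 and Mthfd2) and 2 fell (Ddit4 and Gadd45a) in 7378K. Cebpb, Atf5 and Mthfd2 are named only to complete these counts, after their values were seen. Atf3, a stress-induced transcription factor, gave 7.90, 7.09 and 7.80 in controls, 9.21, 9.38 and 10.08 in 2954K, and 9.84, 9.57 and 9.67 in 7378K. It rose 3.89-fold (adjusted p = 0.00159) and 4.28-fold (adjusted p = 0.000608), with no overlap, and remained called in 7378K with the 3′ minus 5′ covariate (adjusted p = 0.00736). Microglia can also express Atf3, and the part of the microglial signal in this rise was not tested.

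Aldh18a1, an enzyme of proline synthesis, rose 2.13-fold in 7378K (adjusted p = 0.0207), Gadd45a changed by -0.64 (adjusted p = 0.00763) and Ddit4 by -0.50 (adjusted p = 0.0131). Of 21 tested genes of ER-associated degradation beyond the 31, 0 passed in 2954K. In 7378K Ubxn4, which anchors the extraction machinery to the ER, rose by 0.46 (adjusted p = 0.0399) and Rnf5, an ER ubiquitin ligase, changed by -0.94 (adjusted p = 0.0156). With the 3′ minus 5′ covariate these 5 calls ended. Gadd45a was then at -0.51 (adjusted p = 0.104) and Ddit4 at -0.39 (adjusted p = 0.126). Aldh18a1 was at 0.53 (adjusted p = 0.206), Rnf5 at -0.46 (adjusted p = 0.0791) and Ubxn4 at 0.30 (adjusted p = 0.366). With the mean of all its probe sets Ubxn4 was at -0.11. None of 35 genes of ER translocation and folding and none of 12 other sensors and processing factors passed in either LED contrast. At the shares of 1.22% and 3.52% over all genes, lists of this size would hold few or no calls. Among the genes with the smallest p was Stt3a, a subunit of the N-glycosylation enzyme (0.56 in 7378K, adjusted p = 0.0954). With the mean of its probe sets Stt3a was at -0.58. Map3k5, a stress kinase that acts below IRE1, was at 0.66 in 7378K (adjusted p = 0.0862). With the 3′ minus 5′ covariate Map3k5 was at 0.28, and with dap 0.09. Nfe2l2, an antioxidant factor, was at 0.42 in 2954K (adjusted p = 0.2) and 0.32 in 7378K (adjusted p = 0.182). With the mean of its probe sets these Nfe2l2 differences were -0.03 and 0.14. Ero1a, the oxidase that serves the disulfide isomerases, was at -0.32 in 2954K (adjusted p = 0.143).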

How the data were processed

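The deposited values are log2 signals per probe set, of MAS5 type: the submitters' processing notes name MAS5 and affy, without versions or roles. The log2 scale was checked on the values, since 2 raised to them had a 2% trimmed mean near 499.9 on each array, and no further scaling was applied. Of 45101 probe sets, 34945 had a single gene symbol in the platform annotation. Each gene was read by its brightest such probe set, and genes under the 40th percentile (5.91) were left out, leaving 12765. limma 3.58.1 in R 4.3.3 (lmFit, eBayes with trend) fitted 1 mean per group over 9 arrays, with 6 residual degrees of freedom, and p was adjusted over the 12765 genes per contrast. The fit was tested on simulated data with independent noise on each array and no technical shift between groups. That test says nothing on the technical measures that moved with the groups here. The member genes, arms and lists were chosen with earlier results of these data known, and the annotation's symbols can be old. Members described with all array values were the sensors, factors, called genes and those at an unadjusted p under 0.05 in a contrast; of each neighbouring list, up to 4 called genes by smallest p were named, or the 2 with the smallest p where none was called. Arrays carry no read depth, so their number limits the precision. Alternatives concerned the filter, scaling, probe set choice, variance model, covariates, replicate block and leaving out arrays; the covariate from the dap spike-in was chosen after seeing the data.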

Additional observations from a re-analysis of the deposited data

How the results depend on the processing

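Over 23 alternatives, 2300 values for single genes kept their sign and side of the threshold, 113 lost and 56 gained a call, and 2 called values changed sign. A further 73 values that were called in neither fit changed sign, 33 between the lights and 40 against control, of the latter 15 with the mean of probe sets, 8 with the 3′ minus 5′ covariate, 8 with dap and 9 under other settings. The median differences and called members that did move follow, and where none is named the cause was not tested. The mean of all probe sets of a gene also took in those below the filter. With it, the members' median was 0.1392 in 2954K, and -0.0583 between the lights, where the ATF6 median was -0.0526. The PERK median was then 0.4539 in 2954K, 0.3178 in 7378K and 0.3240 in both LED groups, the IRE1 median 0.1193 in 7378K and 0.1485 in both, and the ATF6 median 0.0866 in 7378K, with 1 member called in both (beside 1.88% of all genes). Ubxn4 changed sign under it, to -0.1148 in 7378K and -0.0115 in both. Without an intensity trend 0 members were called in 7378K and 0 in both, where 207 and 265 of all genes were. With control and 7378K arrays alone, 11 were called. With the 3′ minus 5′ covariate 0 were called in 7378K and 0 in both, the members' median in 2954K was 0.1330, and the IRE1 and ATF6 medians were 0.1423 and 0.1218 in 7378K and 0.1814 and 0.0783 in both. With the dap spike-in covariate, chosen after seeing the data, the calls were again 0 and 0, the members' medians 0.1260 in 2954K, 0.0748 in 7378K and -0.0202 between the lights, and the IRE1 and ATF6 medians 0.1447 and 0.1274 in 7378K and 0.1507 and 0.0616 in both. Without the third array of each group, the calls were 0 and 0, the members' median in 2954K 0.1069, and the ATF6 medians 0.0339 in 2954K, 0.1390 in 7378K and 0.0865 in both. Of all genes, 1.07% in 7378K and 1.2% in both were called with the 3′ minus 5′ covariate. The shares were 0.603% and 1.03% with dap, and 1.14% and 1.28% without the third arrays.

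Leaving out 1 array at a time gave 0 to 5 called members in 2954K, 0 to 8 in 7378K, 0 to 1 between the lights and 0 to 8 in both LED groups. The members' median then ran from 0.1412 to 0.2485 in 2954K and from -0.0343 to 0.0861 between the lights. The IRE1 median ran from 0.2062 to 0.3144 in 2954K and from 0.1902 to 0.2869 in both. The ATF6 median ran from 0.0433 to 0.1787 in 2954K, from 0.1688 to 0.2838 in 7378K and from 0.0781 to 0.2100 in both. Over all genes, called counts ranged over the alternatives from 68 to 895 in 2954K, from 77 to 2174 in 7378K, from 0 to 29 between the lights and from 131 to 1847 in both. Replicate numbers are shared by the groups. The deviations of same-numbered arrays correlated at r = 0.06 to 0.33, with 5 of 9 pairs over 0.1, and those of differently numbered arrays at -0.27 to 0.09. In 16 of 18 comparisons an array correlated best with its own number. The main fit took no pairs because the labels do not say what a shared number marks, and these correlations were not the ground for that. With the replicate block, 1 member was called in 2954K (Ern1, adjusted p = 0.0438), 3 in 7378K (Xbp1, Ern1 at 0.0487 and Pdia3 at 0.0479) and 2 in both, where 1.28%, 5.0% and 4.87% of all genes were. With 3 pools per group and no detection calls, small differences and signal over background could not be assessed.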
